A study of Drosophila melanogaster with 4 samples.

Results

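Sugar metabolism genes and nutrient-sensing regulators were followed in heads of Drosophila melanogaster fed tetraethylammonium chloride (TEA). The 8 genes were taken by symbol from the platform annotation, out of 1379 genes tested. They comprise 5 sugar metabolism genes, Ald1 (CG6058), Mdh1 (CG5362), Gbs-70E (CG9238), Mal-A2 (CG8694) and Prps (CG6767), and 3 transcription regulators, sug (CG3850), foxo (CG3143) and Hnf4 (CG9310). All 8 had a value on at least 3 of the 4 arrays, the condition for testing a gene, with 4 genes on 4 arrays and 4 genes on 3. The list was drawn up with earlier results of these data known, so how many of its members stand apart is a description and not independent evidence.

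The flies were unmated males of the wild-type laboratory strain Oregon-R, 3 to 4 days old when feeding began. The TEA groups ate normal food with 16 mg/ml TEA, an organic cation that blocks potassium channels, over 7 days, while the controls ate the same food without it. Vials started with 30 flies, and RNA came from 8 pools of frozen heads, a TEA and a control pool in each of 4 biological replicates. Each replicate had 1 two-colour cDNA array, on which the TEA pool carried Cy5 in replicates 1 and 2, and Cy3 in replicates 3 and 4. Values are log2 ratios of TEA over control, centred on the median of each array, so that 1 means a doubling relative to the typical probe. In whole heads, fewer cells of a type and less RNA per cell cannot be told apart.

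Sugars taken up as food are split by maltases, stored as glycogen or carried in the haemolymph as trehalose, and broken down by glycolysis, with the pentose phosphate route supplying ribose for nucleotides. Neurons and glia of the fly head draw on this supply, and the fat body around the brain stores it. Feeding state is read by transcription factors: foxo is active when insulin signalling is low, sug acts below the sugar sensor Mondo and its partner Mlx, and Hnf4 is a nuclear receptor that in Drosophila larvae promotes the use of stored fat in starvation.

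The deposited tables do not state the direction of the ratio. It was read as Cy5 over Cy3 and replicates 3 and 4 were turned, because channel 1 is Cy5 on every array and the design text names a scanner quantity as red over green, so the direction is likely but not stated. Precision is limited by there being 4 arrays, which held values for 6252, 6212, 5913 and 5445 of 27648 spots in replicates 1 to 4. Over the genes tested, which are not independent replicates, the turned arrays had Spearman correlations of 0.454 between replicates 1 and 2 and 0.520 between 3 and 4, against -0.232 to 0.192 between arrays of opposite dye orientation. Each result below is therefore given by array. Photoreceptor genes, a mark of the head, were measured for 4 of 7 on the array and midgut markers for 0 of 3.

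Of the 8 genes, 0 passed an adjusted p of 0.05 in limma over all genes, where 8 of 1379 genes passed (0.58%), 2 higher and 6 lower with TEA. At an unadjusted p under 0.05 there were 3 of the 8, namely Prps, Gbs-70E and Ald1, all above 0, against 11.2% of all genes in either direction, 6.6% higher and 4.64% lower with TEA. A mean above 0 was found in 6 of 8 genes, against 48.7% of all genes, and 1 sign on every array with a value in 5 of 8, against 22.6% of all genes. Every array lay above 0 in 3 of 8, against 10.9% of all genes. Neither of these 2 shares is like for like, because 1 sign is easier to reach on 3 arrays than on 4. Of the 5 genes with 1 sign, Prps, Mal-A2 and sug had values on 3 arrays. Values on all 4 arrays were held by 995 of the 1379 genes, against 4 of the 8. The 5 sugar metabolism genes had array medians of 0.31, 0.53, 0.68 and 0.47 in replicates 1 to 4, and the 3 regulators -0.07, 0.05, 0.01 and 0.26. These medians cover only genes with a value: Prps, Mal-A2 and sug had none in replicate 4, and foxo none in replicate 3. In replicate 3 the regulators' 0.01 lies midway between sug at -0.54 and Hnf4 at 0.56. Medians of the gene means were 0.54 and 0.16, beside -0.01 for all genes tested. The regulators' median was 0.03 without replicate 3 and 0.05 without replicate 4. The sugar metabolism median lay above the regulators' median on each of the 4 arrays, though the genes behind the medians changed between arrays. This difference is described here without a test.

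**Figure D1:**
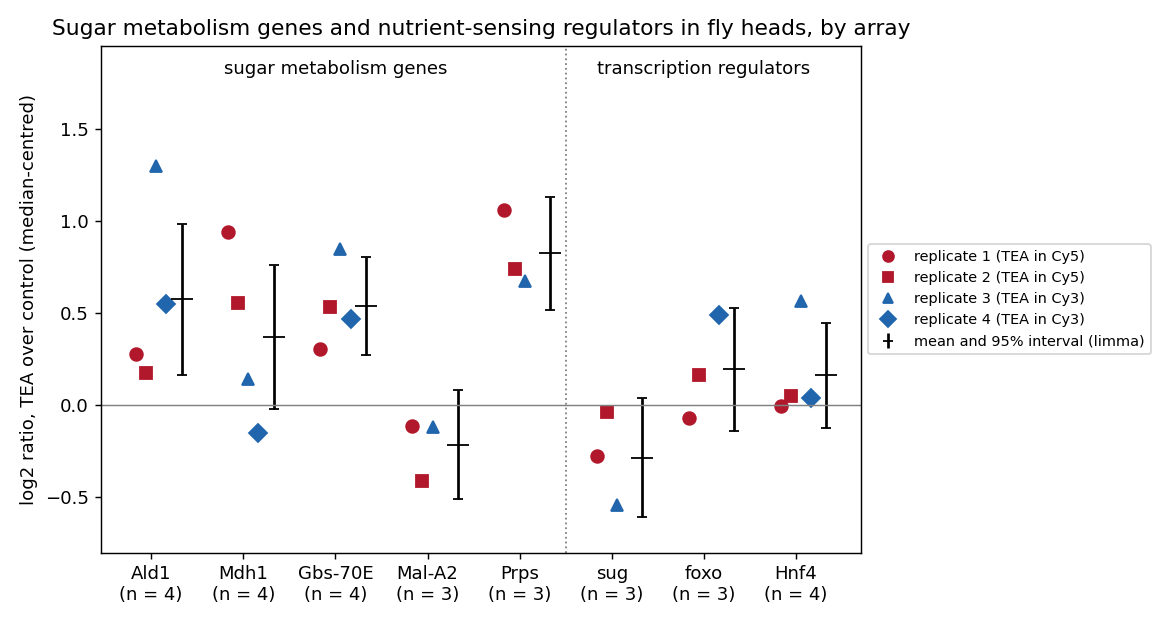
Log2 ratios of TEA over control on each array (y axis, median-centred) for the 8 genes (x axis, with the number of arrays), with the limma mean and its 95% interval in black. Gbs-70E, Ald1 and Prps lie above 0 on every array with a value, Mal-A2 and sug below 0, and Mdh1 is high on the arrays with TEA in Cy5 and near 0 on the others.

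Prps makes phosphoribosyl pyrophosphate from ribose phosphate, the step that leads from the pentose phosphate route into nucleotide synthesis. Its log2 ratio of TEA over control was 1.06, 0.74 and 0.68 in replicates 1 to 3, and it had no value in replicate 4. All 3 arrays were above 0, and on these arrays Prps exceeded 99.1%, 98.4% and 94.0% of the genes tested. Its duplicate spots agreed, at 1.02 and 1.10 in replicate 1, 0.73 and 0.74 in replicate 2, and 0.60 and 0.75 in replicate 3. The mean was 0.83 ± 0.13 (SE, n = 3; limma adjusted p = 0.052), a ratio of 1.77 with a 95% interval of 1.43 to 2.19. Prps lay just outside the threshold, and with arrays not centred it passed, at 0.85 (limma adjusted p = 0.028). Leaving out replicate 1, 2 or 3 left Prps with n = 2. The limma adjusted p was then 0.0091 without replicate 3, where both remaining arrays carried TEA in Cy5. It was 0.244 without replicate 1 and 0.142 without replicate 2, and at the probe level it was 0.165. With only replicate 3 carrying TEA in Cy3, a dye effect does not cancel in its mean.

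Gbs-70E is a glycogen-binding subunit that brings protein phosphatase to glycogen, where the phosphatase promotes glycogen synthesis. It was the most even of the genes measured on 4 arrays, at 0.31, 0.53, 0.85 and 0.47 in replicates 1 to 4, all above 0. The mean was 0.54 ± 0.12 (SE, n = 4; limma adjusted p = 0.103), a ratio of 1.45 with a 95% interval of 1.21 to 1.75. It is the one gene of the 8 with values from more than 1 probe, and the probes agreed in direction, at 0.63 ± 0.13 and 0.45 ± 0.12 (SE, n = 4 each). Each of its 16 spot values lay above 0, the lowest being 0.14 in replicate 1 and the highest 0.97 in replicate 3. The related subunit gene Gbs-76A did not share this, with -0.39, -0.05, -0.30 and 0.01 on the same arrays and a mean of -0.18 ± 0.11 (SE, n = 4; limma adjusted p = 0.571).

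**Figure D2:**
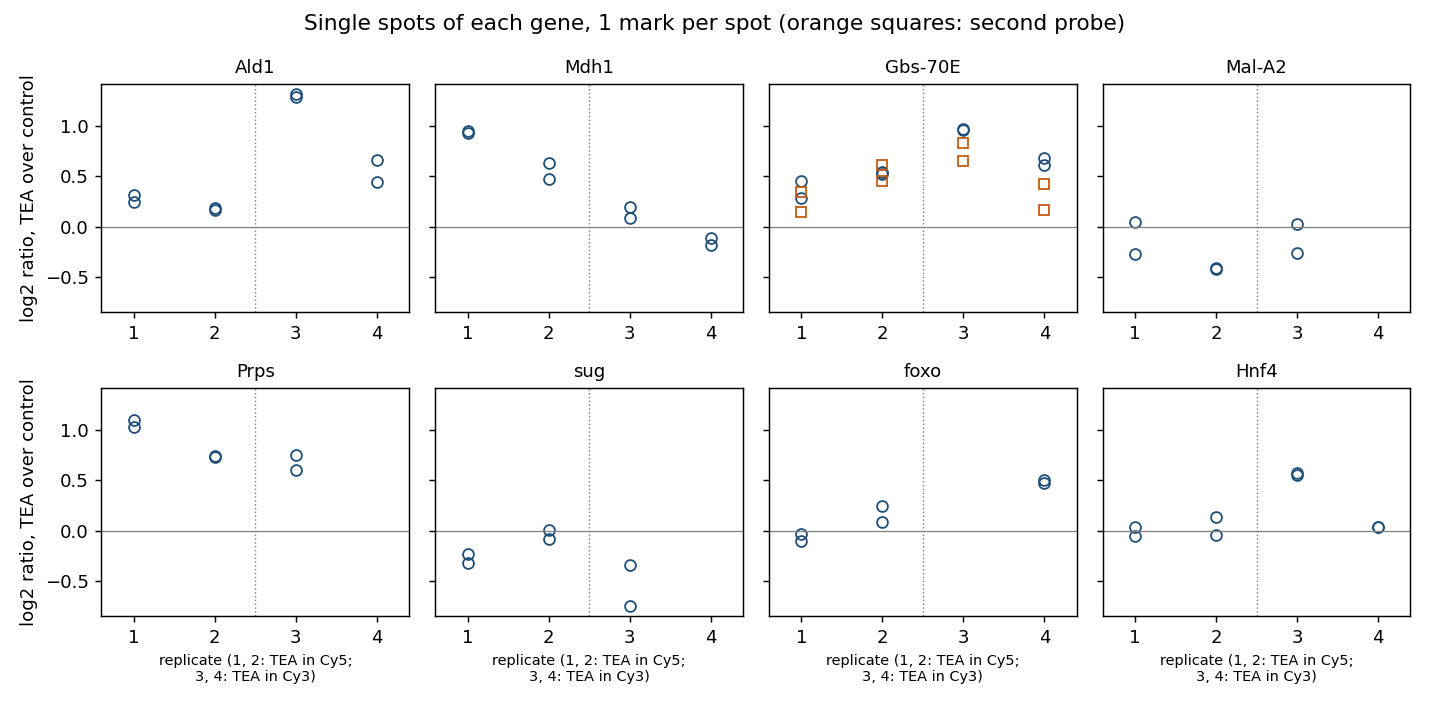
Median-centred log2 ratios of TEA over control (y axis) of every single spot of the 8 genes by replicate (x axis), with blue circles for a gene's first probe and orange squares for its second. The spots of Gbs-70E, from both probes, lie between 0.14 and 0.97, and the duplicate spots of Mal-A2 differ in sign in replicates 1 and 3.

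Ald1 is the aldolase of glycolysis, which splits fructose bisphosphate into triose phosphates. Its log2 ratio was 0.28, 0.17 and 1.30 in replicates 1 to 3 and 0.55 in replicate 4, above 0 on all 4 arrays. The arrays with TEA in Cy3 were higher than those with TEA in Cy5. The mean was 0.58 ± 0.18 (SE, n = 4; limma adjusted p = 0.265), a ratio of 1.49 with a 95% interval of 1.12 to 1.98. Without replicate 3 the mean was 0.33. By dye orientation the mean was 0.23 with TEA in Cy5 and 0.92 with TEA in Cy3, and the orientation term had a limma adjusted p of 0.044. Of all genes, 9.14% passed for that term. Ald1 has a second probe, which held no value on any array.

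Mdh1 is the cytosolic malate dehydrogenase, part of the shuttle that passes reducing equivalents from glycolysis to mitochondria. Its log2 ratio was 0.94 and 0.55 in replicates 1 and 2 and 0.14 and -0.15 in replicates 3 and 4. Its mean was 0.75 where Cy5 marked TEA and -0.0039 where Cy3 did (orientation term, limma adjusted p = 0.020). That term passed in 126 of 1379 genes (9.14%), Ald1 among them, so such a difference was not particular to Mdh1. The mean of all arrays was 0.37 ± 0.17 (SE, n = 4; limma adjusted p = 0.457), with a 95% interval of -0.02 to 0.76, and without replicate 1 it was 0.18. The probe just before Mdh1 in the table, for CG11400, had 1.04, 0.59, 0.51 and 0.06 in replicates 1 to 4 (mean 0.55 ± 0.15, SE, n = 4; limma adjusted p = 0.214). This gene was chosen after its values were seen. Other measured neighbouring probes were unlike the gene beside them, with means of -0.23 beside Ald1 and -0.05 beside a Gbs-70E probe. The probe for CG5447, which lies between the other Gbs-70E probe and Prps, had a mean of -0.10. The remaining neighbouring positions held no value. Whether a neighbouring probe plays a part in the Mdh1 values was not tested.

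Mal-A2 belongs to the maltase gene cluster, whose enzymes release glucose from maltose and similar sugars. It stood below 0 on the arrays that measured it, at -0.11, -0.41 and -0.12 in replicates 1 to 3, with a mean of -0.21 ± 0.13 (SE, n = 3; limma adjusted p = 0.571). The 95% interval was -0.51 to 0.08, and without replicate 2 the mean was -0.12. Its single spots were less even than those of Prps: they read 0.05 and -0.27 in replicate 1 and 0.03 and -0.26 in replicate 3, so the sign on those arrays rests on 1 spot. Mal-A2 was the only one of 7 maltase and amylase genes on the array that could be tested.

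When dye orientation was added to the fit as a term, 4 of the 8 genes passed, all above 0, among 140 genes of 1379. The limma adjusted p was 8.2e-05 for Prps (0.79), 0.00059 for Gbs-70E (0.54), 0.00064 for Ald1 (0.58) and 0.018 for Mdh1 (0.37). The term removes the part of the spread that separates the dye orientations, and with it the means of genes on 4 arrays do not change. This fit was an alternative to the one without a dye term, in which 0 of the 8 passed.

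Among the regulators, sug, a zinc finger transcription factor induced by dietary sugar, stood at -0.27, -0.04 and -0.54 in replicates 1 to 3. All 3 values were below 0, with the one in replicate 2 close to it. The mean was -0.28 ± 0.14 (SE, n = 3; limma adjusted p = 0.493) and the 95% interval -0.61 to 0.04. Its duplicate spots differed in sign in replicate 2, at 0.0065 and -0.0835, and in size in replicate 3, at -0.34 and -0.74. Without replicate 3 the mean was -0.16.

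The gene foxo encodes the forkhead factor that insulin signalling keeps out of the nucleus. Its log2 ratio was -0.07, 0.17 and 0.49 in replicates 1, 2 and 4, with no value in replicate 3, so the arrays did not share a sign. The mean was 0.20 ± 0.14 (SE, n = 3; limma adjusted p = 0.631), with a 95% interval of -0.14 to 0.53. Without replicate 4 it was 0.05. An array of this kind reads the transcript, and foxo activity is set in large part by where the protein is held, which was not measured.

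Hnf4 had -0.01, 0.05, 0.56 and 0.04 in replicates 1 to 4. Its value was high in replicate 3 and close to 0 on the other arrays, and both spots in replicate 3 agreed, at 0.56 and 0.57. The mean of 0.16 ± 0.12 (SE, n = 4; limma adjusted p = 0.641) fell to 0.03 without replicate 3. Of 3 probes for Hnf4, 1 gave values.

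**Figure D3:**
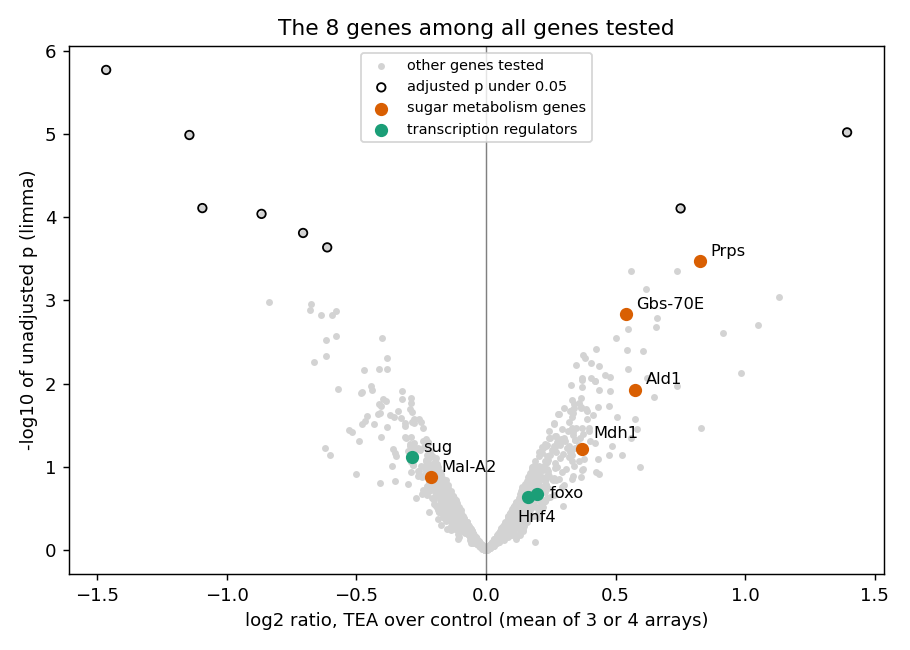
Mean log2 ratio of TEA over control (x axis) against -log10 of the unadjusted limma p (y axis) for all 1379 genes tested, with the 5 sugar metabolism genes in orange, the 3 regulators in green and the 8 genes past the adjusted threshold circled. Prps lies closest to the circled genes, and sug, foxo, Hnf4 and Mal-A2 lie within the body of the other genes.

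Other genes of the same pathways were then read beside the 8, from 10 lists drawn up with earlier results known. Over these lists 40 different genes could be tested, 32 of them outside the 8. None of the 32 passed in limma, against 0.58% of all genes, and 5 had an unadjusted p under 0.05, against 11.2% of all genes. Means above 0 were found in 21 of the 32, against 48.7% of all genes, and the median was 0.08 against -0.01. The share at an unadjusted p under 0.05 was near that of all genes.

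In glycolysis and gluconeogenesis, 9 genes of 15 on the array were tested, 6 of them above 0, with a median of 0.06. Ald1 had the highest mean of the 9. The other 8 lay between -0.04 and 0.19, and their medians by array were 0.10, 0.19, 0.01 and -0.01 in replicates 1 to 4, with Ald1 at 0.28, 0.17, 1.30 and 0.55. Next to Ald1 by p were Pgi, the glucose phosphate isomerase, at 0.19 ± 0.10 (SE, n = 4; limma adjusted p = 0.535), Gapdh1, a glyceraldehyde phosphate dehydrogenase, at 0.15 ± 0.10, and Gpdh1, the glycerol phosphate dehydrogenase, at 0.09 ± 0.10. Only on arrays 1, 3 and 4 did Ald1 exceed the median of the others.

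Of the glycogen and trehalose genes, 6 of 12 on the array were tested and 5 lay above 0, with a median of 0.09. Besides Gbs-70E and Gbs-76A they included flw, a catalytic subunit of protein phosphatase, at 0.14 ± 0.12, and the trehalase gene Treh at 0.05 ± 0.11 (SE, n = 4 each). UGP, which makes the sugar nucleotide for glycogen and trehalose, split by dye orientation, with 0.91 and 0.88 in replicates 1 and 2 and -0.54 and -0.73 in replicates 3 and 4; it was chosen after its values were seen.

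The nucleotide and pentose phosphate list had 5 tested genes of 11 on the array, 4 above 0, with a median of 0.12. Prps was the highest. Paics, an enzyme of purine synthesis that lies downstream of Prps, had 1.00 and 0.60 in replicates 1 and 2 but -0.25 and -0.52 in replicates 3 and 4, and a mean of 0.21 ± 0.23 (SE, n = 4; limma adjusted p = 0.745). Taldo, a transaldolase, stood at 0.12 ± 0.13 and Adss, an adenylosuccinate synthetase, at 0.07 ± 0.09 (SE, n = 4 each). On the arrays with TEA in Cy5, Prps and Paics were both high, and on replicate 3, with TEA in Cy3, they had opposite signs.

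The list of the tricarboxylic acid cycle and malate shuttle had 5 tested genes of 12 on the array, 2 above 0, with a median of -0.06. Men-b, a malic enzyme, stood at the other end from Mdh1, with -0.59, -0.32 and -0.20 in replicates 1 to 3 and a mean of -0.37 ± 0.13 (SE, n = 3; limma adjusted p = 0.338). Idh3a, a subunit of isocitrate dehydrogenase, had 0.13 ± 0.10 and SdhD, a subunit of succinate dehydrogenase, -0.09 ± 0.10 (SE, n = 4 each).

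**Figure D4:**
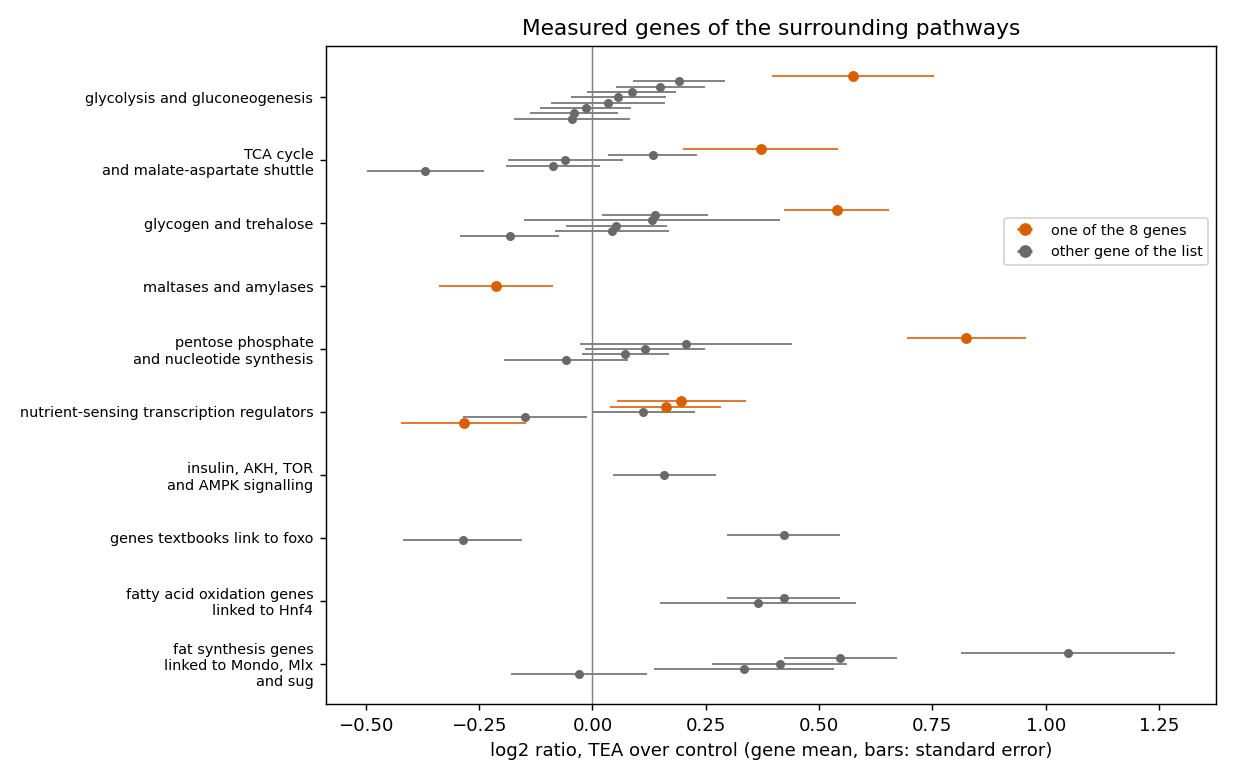
Gene means of the log2 ratio of TEA over control (x axis, bars are standard errors) for the tested genes of the 10 pathway lists (rows), with the 8 genes in orange and other listed genes in grey. Ald1, Mdh1, Gbs-70E, Prps and foxo each have the highest mean of their list, and Mal-A2 is the only gene tested in its list.

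Beside sug, foxo and Hnf4, the list of nutrient-sensing transcription regulators had Max, the partner of Myc, at -0.15 ± 0.14 (SE, n = 3) and the deacetylase Sirt1 at 0.11 ± 0.11 (SE, n = 4). Its median was 0.11 over 5 tested genes of 11 on the array. In insulin, adipokinetic hormone, TOR and AMPK signalling only S6k, the ribosomal protein S6 kinase, could be tested of 9 genes on the array, at 0.16 ± 0.11 (SE, n = 4; limma adjusted p = 0.626).

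Genes that textbooks place below the regulators were few. Of 4 foxo-linked genes on the array, 2 were tested: the lipase bmm had 0.01, 0.56, 0.61 and 0.51 in replicates 1 to 4 (mean 0.42 ± 0.12, SE, n = 4; limma adjusted p = 0.241), and Sesn, a sestrin, had -0.29 ± 0.13 (SE, n = 4; limma adjusted p = 0.457). The fat oxidation genes linked to Hnf4 were bmm and bgm, an acyl-CoA synthetase, at 0.37 ± 0.22 (SE, n = 3), for 2 tested of 7 on the array. By array, bgm had 0.72 and 0.71 in replicates 1 and 2 and -0.33 in replicate 4. Of the fat synthesis genes linked to Mondo, Mlx and sug, 5 of 9 on the array were tested, 4 above 0 and with a median of 0.41. These were the desaturase Desat1 at 1.05 ± 0.24 (limma adjusted p = 0.123), the lipid droplet protein Lsd-2 at 0.55 ± 0.13 (0.127), the fatty acid synthase FASN1 at 0.41 ± 0.15 (0.338) and the acetyl-CoA synthase AcCoAS at 0.33 ± 0.20 (0.571), each with n = 4. In replicates 1 to 4, Desat1 had 1.74, 1.59, 0.56 and 0.31, and Lsd-2 had 0.57, 0.36, 0.93 and 0.32. FASN1 had 0.79, 0.67, -0.055 and 0.25, and AcCoAS had 0.735, 0.90, 0.03 and -0.33. Desat1, FASN1 and AcCoAS were thus lower on the arrays with TEA in Cy3.

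Markers of cell types were read beside these genes. Of those tested only apolpp passed the adjusted threshold, which 0.58% of all genes passed. Of 10 head fat body markers, 8 were on the array and 5 were tested, 4 above 0, with medians of 0.72, 0.67, -0.11 and 0.17 in replicates 1 to 4. Among them apolpp, the lipid carrier precursor, was higher with TEA (0.75 ± 0.10, SE, n = 4; limma adjusted p = 0.021), while Lsp2, a storage protein, stood at -0.03 ± 0.13 and Yp2, a yolk protein, at 0.02 ± 0.11. On replicate 3 the fat body markers were split, with apolpp at 0.935, FASN1 at -0.055, Lsp2 at -0.327 and Yp2 at -0.1625, while bgm had no value. How well a yolk protein gene such as Yp2 marks the fat body of these male flies was not tested. Of the 2 tested glial markers of 6 on the array, Gs2, the glutamine synthetase, had 0.33, 0.64, 0.48 and 0.25 in replicates 1 to 4 (mean 0.42 ± 0.11, SE, n = 4; limma adjusted p = 0.174), and loco, a regulator of G protein signalling, had -0.38 ± 0.14 (SE, n = 3; limma adjusted p = 0.383). The 4 tested photoreceptor genes had a median of 0.06, with the arrestin Arr1 above 0 on all 4 arrays at 0.37 ± 0.13 (SE, n = 4; limma adjusted p = 0.325). The neuronal marker Sap47, a synaptic protein and the only one tested of 2 on the array, had -0.08, 0.09, 0.97 and 0.21 in replicates 1 to 4. The 3 tested muscle markers of 6 on the array lay between -0.12 and 0.19, and haemocyte markers were measured for 0 of 4. The part of any of these cell types in the values of the 8 genes was not tested.

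**Figure D5:**
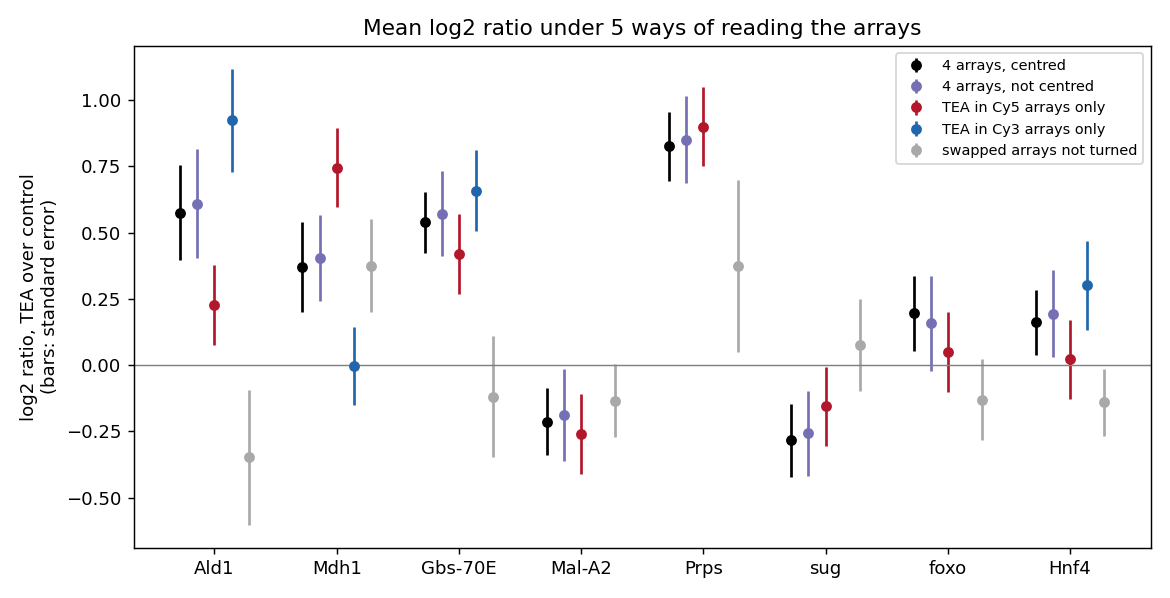
Mean log2 ratio of TEA over control with its standard error (y axis) for the 8 genes (x axis) under 5 readings of the arrays, in the colours of the legend. Prps, Mal-A2, sug and foxo have no point for TEA in Cy3 only. Gbs-70E is at 0.42 with TEA in Cy5 and 0.66 with TEA in Cy3, and it changes to -0.12 when the swapped arrays are not turned.

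The signs depend on the reading of the ratio. If the values of replicates 3 and 4 already ran TEA over control, 5 of the 8 means would take the other sign: Ald1 would be -0.35 ± 0.25, Gbs-70E -0.12 ± 0.23, sug 0.08 ± 0.17, foxo -0.13 ± 0.15 and Hnf4 -0.14 ± 0.13 (SE). Mdh1 would stay at 0.37 ± 0.18 and Prps would be 0.37 ± 0.33. In that reading limma called 0 of 1379 genes, with 165 at an unadjusted p under 0.05. If the ratio ran Cy3 over Cy5 throughout, every sign would turn and no size would change.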

How the data were processed

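Spots were quantified by the authors in GenePix Pro 6.0 and their ratios normalised in Acuity 4.0, per the labels' design text. Normalisation ignored dim spots (raw intensity below 100 and below 2 times the mean background), and the spots kept had less than 3% of pixels saturated, no bad flag, uniform pixels (R2 of 0.6 or more) and signal-to-noise of 3 or more. The deposited values are log2 ratios, left empty where a spot failed these filters. The log base follows from a ceiling of 16.61, and the 8 values at it were set to missing. The authors' own test was SAM 3.0, which was not run here because its settings are missing from the labels.

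Replicates 3 and 4 were turned, the 2 neighbouring spots of a probe were averaged, each array was centred on its probe median (-0.09, -0.077, -0.248 and -0.054 over spots before turning), and the probes of a gene were averaged. Symbols came from the platform annotation; 7447 of 7558 probes with 1 symbol took the current one by gene identifier from RefSeq (Release 6). Genes with values on at least 3 arrays entered a limma 3.58.1 fit (R 4.3.3; lmFit, eBayes, intercept only, two-sided test against 0) with Benjamini-Hochberg adjustment over 1379 genes, a threshold of 0.05 and 95% intervals. An exact sign-flip test could not go below p = 0.125 with 4 arrays. The fit was tested on simulated data. Alternatives were centring, scaling, turning, a dye term, the arrays used, the filter, averaging and ceiling values. Replicates are pools from separate vials. The 8 genes, the lists and the naming rule (the 8, up to 4 genes per list by smallest p, any listed gene past the threshold, and close relatives) were chosen with earlier results of these data known. Sequences were not used here.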

Additional observations from a re-analysis of the deposited data

Results flagged for a closer look

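Hnf4 was marked because 1 array stood far from the other 3: the gap of replicate 3 (0.56) to the next value was 0.903 of the whole range, past Dixon's 95% critical value for 4 samples. The lipase gene bmm was marked in the same way, with replicate 1 (0.01) below the other arrays and a gap of 0.842 of the range. Over 32 genes and group medians with 4 values these were 2, and chance marks about 5% of such groups.

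Ald1 and Mdh1 were marked because their log2 ratios differed between dye orientations in the fit with an orientation term (limma adjusted p = 0.0444 for Ald1 and 0.0198 for Mdh1), and they differed in opposite senses. Ald1 averaged 0.23 with TEA in Cy5 and 0.92 with TEA in Cy3, and Mdh1 averaged 0.75 with TEA in Cy5 and -0.0039 with TEA in Cy3. Over all genes, 126 of 1379 passed for this term.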

How the results depend on the processing

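No further pairing was applied, because the ratio on each array already pairs the TEA and control pools of 1 replicate. Ceiling values changed no result, and scaling or the probe level changed no call of the 8 genes. A filter for values on all 4 arrays kept 4 of the 8 (Ald1, Mdh1, Gbs-70E and Hnf4), changed none of their calls and left Prps, Mal-A2, sug and foxo untested. Prps passed, as the only one of the 8, with arrays not centred (0.85, limma adjusted p = 0.028) and with values on at least 2 arrays (0.83, 0.049). It also passed with the median of all spots (0.83, 0.049) and without replicate 3 (0.90, 0.0091), the latter on n = 2, both with TEA in Cy5. Prps did not pass without replicate 1 (0.71, 0.244) or without replicate 2 (0.87, 0.142), each with n = 2. Nor did it pass at the probe level (0.83, 0.165) or with centred and scaled arrays (0.84, 0.056). Leaving out replicate 4, where Prps had no value, could not change its mean (0.83, 0.053). With TEA in Cy5 only, 2 passed, Mdh1 at 0.75 and Prps at 0.90. That fit gave each of the 8 genes the same SE, 0.15, on n = 2, so its calls follow the size of the mean. A dye effect does not cancel in it. With a dye term 4 passed, Ald1 at 0.58, Mdh1 at 0.37, Gbs-70E at 0.54 and Prps at 0.79. Mdh1 reversed to -0.0039 with TEA in Cy3 only, where Prps, Mal-A2, sug and foxo could not be tested. With swapped arrays not turned, Ald1 reversed to -0.35, Gbs-70E to -0.12, sug to 0.076, foxo to -0.13 and Hnf4 to -0.14, and the median of the sugar metabolism genes became -0.12 and that of the regulators -0.13. The count of genes past the threshold, 8 of 1379, became 140 with a dye term and 12 with arrays not centred. Fewer genes could be tested by dye orientation, where it was 123 of 1374 with TEA in Cy5 only and 5 of 1018 with TEA in Cy3 only. The count was 0 with swapped arrays not turned (165 at an unadjusted p under 0.05) or at the probe level (309 of 3150 probes). It was 1 without replicate 1, 6 without replicate 2, 25 without replicate 3 and 4 without replicate 4, a range of 1 to 25, and the count of the 8 genes ranged from 0 to 1. Leaving out 1 replicate gave 0.33 to 0.71 for Ald1, 0.18 to 0.54 for Mdh1, 0.44 to 0.62 for Gbs-70E, -0.26 to -0.12 for Mal-A2, 0.71 to 0.90 for Prps, -0.41 to -0.16 for sug, 0.05 to 0.33 for foxo and 0.03 to 0.22 for Hnf4, with no change of sign; the medians ranged from 0.44 to 0.62 for the sugar metabolism genes and from 0.03 to 0.22 for the regulators. The cause of these changes was not tested. Signal over background could not be read from the ratios.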
